A study of Rattus norvegicus with 10 samples.

Results

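Integrins are cell surface receptors built of an alpha and a beta chain that hold cells to the matrix around them, and laminins are their main ligands in basement membranes. Each laminin is a trimer of an alpha, a beta and a gamma chain; nidogens and the proteoglycans perlecan and agrin tie the laminin sheet to the rest of the membrane. Inside the cell, talin, kindlin, vinculin, focal adhesion kinase and the complex of integrin-linked kinase, PINCH and parvin join the integrin tails to actin. In the developing kidney these genes serve the budding of the ureteric epithelium, the forming nephron and the glomerular filter.

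The set was defined by gene symbol and by no threshold on a measured value, though with earlier results of these data known. It took in every probe set with a single symbol for an integrin chain, a laminin chain, a nidogen, perlecan (Hspg2), agrin (Agrn), or one of 7 adhesion plaque genes (Ilk, Lims1, Parva, Tln1, Vcl, Ptk2 and Pxn). It held 35 of 10411 named genes, on 48 probe sets; 12 genes had several probe sets and 23 had 1. The symbol rule also took in Itgb1bp1, Itgb1bp2 and Itgb3bp, which encode proteins named for binding an integrin tail and are no integrin chains.

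Kidneys of rat fetuses were taken on day 22 of gestation and measured on Affymetrix rat arrays, 1 array per sample. In the normal group (replicates 1 to 5) the mothers had a regular diet, and the labels name no strain for them. In the hyperinsulinemic group (replicates 6 to 10) the fetuses were growth restricted and the mothers were Wistar rats of 200 to 280 g on a normal diet, with a 2 mm piece of a slow-release insulin implant placed under the skin a week before mating and replaced a week after it. The labels name no mother, litter, sex or batch for a sample, so a p-value here stands for the variation among these 10 arrays alone, part of which may be technical or common to a litter. Whole kidney RNA was measured, so fewer cells of a type and less RNA per cell cannot be told apart in any value below.

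The deposited values were linear MAS5 signals, and their mean without the top and bottom 2% was the same on every array to the whole number. All 9 measured kidney epithelium markers were bright enough to be tested, and skeletal muscle markers were not (0 of 4 measured). The summed signal of the kidney epithelium markers was 8105 to 8891 on normal and 8800 to 9641 on hyperinsulinemic arrays (exact two-sided permutation p = 0.0238). The log2 difference was positive for 5 of the 9 and negative for 4, with a median of 0.03. An unadjusted p under 0.05 was reached in limma by 1 of the 9, Aqp2, the water channel of the collecting duct, against 5.17% of all 7267 genes. Its mean signal was 1299 on normal and 1756 on hyperinsulinemic arrays, a log2 difference of 0.45 ± 0.11 (limma, adjusted p = 0.54). This was the largest log2 difference of the 9 in either direction. Aqp2 is part of the summed signal, and the sum without it was not tested. Hyperinsulinemic replicate 6 stood apart, with a median correlation with the other arrays of 0.981 against 0.985 to 0.988 for the other 9, and it had the highest summed signal of 9 liver markers, 4997, against 640 to 1566 on the other hyperinsulinemic arrays. On normal arrays this sum was 1933 on replicate 4 and 450 to 488 on the other 4, so every hyperinsulinemic array was above 4 of the 5 normal ones. Of the 6 liver genes tested, 6 had a positive log2 difference (median 1.03), 4 an unadjusted p under 0.05 and 0 an adjusted one (limma). Normal replicate 1 carried adrenal transcripts: the summed signal of 4 adrenal markers was 718 there and 84.7 to 137 elsewhere. Xist, made in cells with more than 1 X chromosome, ran from 0.800 to 2.00 on normal and from 42.4 to 70.5 on hyperinsulinemic arrays, so a difference in fetal sex and the mothers' treatment cannot be told apart. Xist lay below the filter on every array. Sry, the other sex-linked gene measured, was dim too and overlapped, from 9.80 to 24.2 on normal and from 3.70 to 25.6 on hyperinsulinemic arrays. Of the 35 genes, Itgb1bp2 alone is X-linked, and a difference by sex in genes on other chromosomes was not tested.

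None of the integrin, laminin or adhesion plaque genes passed the test between the groups. Probe sets entered the test if they lay at or above the 40th percentile of the array on 5 or more of the 10 arrays, and log2(signal + 16) was compared with limma. This left 33 probe sets of 27 genes, and fold changes on that scale understate those of dim genes. Of the 33, 0 had a Benjamini-Hochberg adjusted p under 0.05 over all 9601 tested probe sets, of which 0.0104% did. An unadjusted p under 0.05 was reached by 3 (9.09%), all lower in the hyperinsulinemic group: Lama2, 1 of 2 probe sets of Lamc1 and 1 of 2 of Itgb3bp. Over all tested probe sets this share was 5.36% in either direction, 2.93% lower and 2.44% higher. The exact rank-sum test gave an unadjusted p under 0.05 for 1, Lama2, against 3.77% of all. Counted by gene, with the brightest probe set of each, it was 1 of 27 in limma (3.70%) against 5.17% of all 7267 genes; by gene the share was below the background, by probe set above it. The count of 3 became 1, Lama2, without normal replicate 3 or without hyperinsulinemic replicate 6.

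Counted by gene, with the brightest probe set of each, the differences were also small, with narrow intervals for most. The log2 difference was negative for 17 of the 27 genes and positive for 10, its median was -0.03 and its interquartile range -0.06 to 0.01. Leaving out 1 array moved the median to -0.0132 (normal replicate 1), -0.0152 (normal replicate 3), -0.0078 (normal replicate 5) or -0.0135 (hyperinsulinemic replicate 6). Over all 7267 genes 48.5% had a negative difference, the median was 0.0029 and the interquartile range -0.06 to 0.06. The split of 17 and 10 was 18 and 9 with quantile normalization and 14 and 13 with liver signal as a covariate. For 24 of the 27 the size was under 0.1. The 95% interval of the difference lay within 0.5 of 0 for 27 of 27 genes and within 0.26 of 0 for 23, the others being Lama2, Itga2b, Itga6 and Itga7. Dimmer probe sets had wider intervals, at most down to -0.91 for Itgb3bp, and 8 genes had no tested probe set. Signals varied by a median of 7.59% between arrays of 1 group (4.40% to 17.5%), against 9.25% over all tested genes, whose signals were lower in the median.

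**Figure D1:**
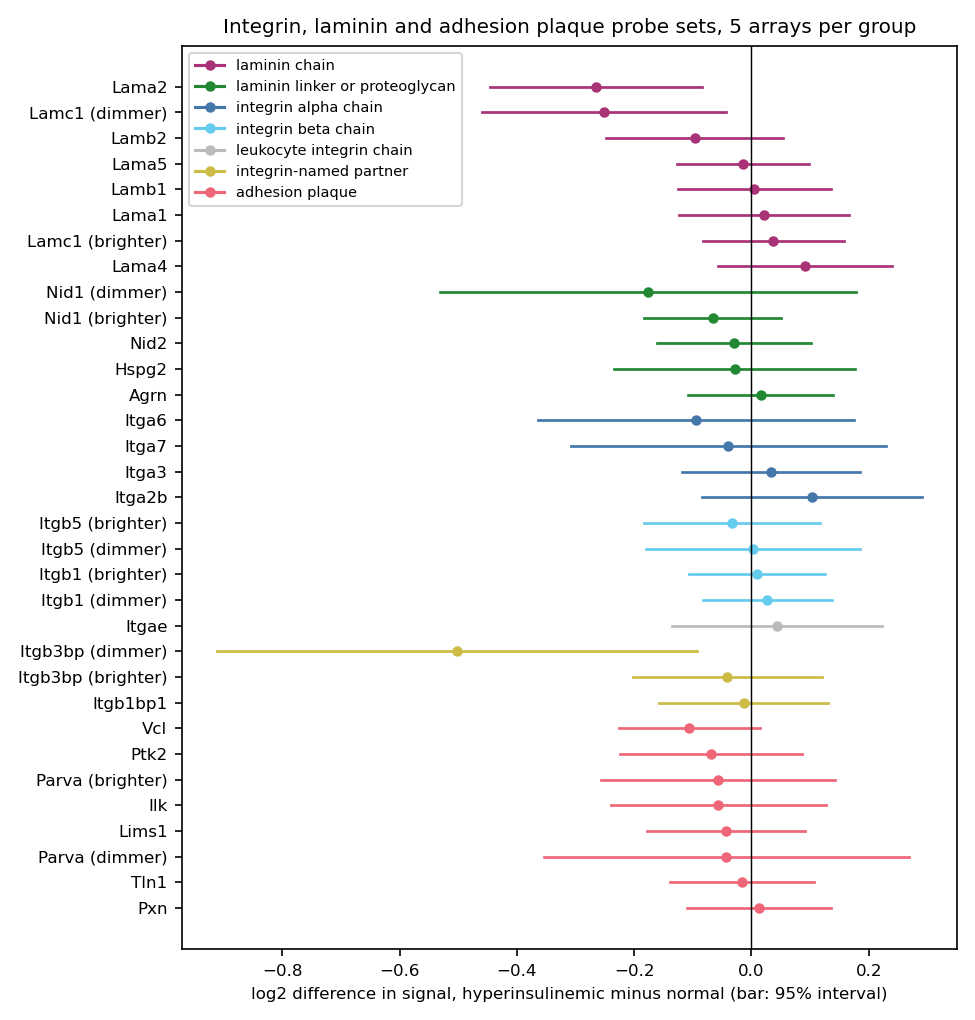
Log2 difference in signal (hyperinsulinemic minus normal, x axis) of the 33 tested probe sets, ordered by role, with limma's 95% interval as a bar; brighter and dimmer mark the 2 probe sets of a gene. Of the intervals, 3 do not reach 0: those of Lama2, the dimmer Lamc1 and the dimmer Itgb3bp probe set, and none of the 3 passed adjustment over all probe sets.

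Among the laminins, Lama2, the alpha chain of laminin around muscle fibres, nerves and mesenchyme, had the smallest p of the set. Its signal was 254, 243, 261, 242 and 251 in normal replicates 1 to 5 and 229, 217, 169, 187 and 232 in hyperinsulinemic replicates 6 to 10. Every hyperinsulinemic array was below every normal one, and replicates 8 and 9 were the lowest. The log2 difference was -0.27 ± 0.08 (limma, adjusted p = 0.831, unadjusted 0.00704, rank 80 of 9601), and leaving out each array gave -0.31 to -0.20. Of the 33 tested probe sets Lama2 was the 1 whose groups did not overlap (3.03%), against 1.04% of all in either direction and 0.51% of all with the hyperinsulinemic group lower. Stromal markers had lower means in the hyperinsulinemic group: 8 of 8 (Lum, Dcn, Postn, Col1a1, Col1a2, Col3a1, Col14a1 and Pdgfra). Their summed signal was 10524 to 12450 on normal and 9333 to 10887 on hyperinsulinemic arrays, and none was at 0. The exact two-sided permutation p of the sum was 0.0159, for a list chosen with earlier results of these data known. On normal replicates 1 to 5 the sum was 11171, 11815, 10524, 12450 and 11113, and Lama2 ran only from 242 to 261. On hyperinsulinemic replicates 6 to 10 the sum was 10887, 10036, 9333, 10099 and 10158, and Lama2 ran from 169 to 232. An unadjusted p under 0.05 in limma was reached by 5 of the 8, against 5.17% of all 7267 genes, and an adjusted one by 0. Of 5 tested smooth muscle and mesangium markers 4 had a negative log2 difference and 1, Des, a positive one, with a median of -0.13. The part of either list in the value of Lama2 was not tested. Without the 2 arrays with the most liver signal (normal replicate 4 and hyperinsulinemic replicate 6) the log2 difference of Lama2 was -0.31, and without normal replicate 1, with its adrenal signal, -0.26.

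Lama2 assembles with the beta and gamma chains of Lamb1 and Lamc1, and integrins with the Itgb1 chain bind the trimer. The stretches around the transcription start of these 4 genes are shown because their values are set beside each other below (RefSeq, build GRCr8, 250 bases before to 50 after the start, 5′ to 3′ on the gene's strand, GC boxes in capitals). They lie at chr1:19491896-19492195 on the plus strand for Lama2, chr6:53562846-53563145 on the plus strand for Lamb1, chr13:68051937-68052236 on the minus strand for Lamc1 and chr19:73602027-73602326 on the plus strand for Itgb1.
Lama2: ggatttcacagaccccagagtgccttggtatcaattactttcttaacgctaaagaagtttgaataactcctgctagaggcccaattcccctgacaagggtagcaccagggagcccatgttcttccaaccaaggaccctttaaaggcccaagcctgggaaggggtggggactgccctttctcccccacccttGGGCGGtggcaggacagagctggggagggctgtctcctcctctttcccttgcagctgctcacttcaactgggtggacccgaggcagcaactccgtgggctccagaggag
Lamb1: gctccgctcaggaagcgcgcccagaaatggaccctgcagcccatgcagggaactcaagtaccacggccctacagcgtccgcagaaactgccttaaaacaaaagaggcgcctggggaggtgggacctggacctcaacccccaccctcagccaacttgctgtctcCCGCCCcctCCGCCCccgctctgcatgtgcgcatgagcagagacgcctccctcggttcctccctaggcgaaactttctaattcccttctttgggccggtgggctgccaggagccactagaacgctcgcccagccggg
Lamc1: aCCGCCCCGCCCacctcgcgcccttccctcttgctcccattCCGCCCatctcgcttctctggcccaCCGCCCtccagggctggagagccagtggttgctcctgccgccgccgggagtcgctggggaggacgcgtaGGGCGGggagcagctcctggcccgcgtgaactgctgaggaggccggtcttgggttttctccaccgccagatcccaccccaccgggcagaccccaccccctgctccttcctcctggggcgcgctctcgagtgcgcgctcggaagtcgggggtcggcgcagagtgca
Itgb1: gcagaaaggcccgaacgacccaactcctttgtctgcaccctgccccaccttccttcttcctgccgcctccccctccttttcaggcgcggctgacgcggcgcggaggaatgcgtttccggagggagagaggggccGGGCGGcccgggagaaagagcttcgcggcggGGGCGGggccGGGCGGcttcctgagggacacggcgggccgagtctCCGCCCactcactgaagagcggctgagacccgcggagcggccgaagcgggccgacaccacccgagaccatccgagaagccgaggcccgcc
The GC box searched was GGGCGG on either strand, which Sp-family factors bind. It occurred once in the Lama2 window, in 2 places in Lamb1, 5 in Lamc1 and 4 in Itgb1. CpG dinucleotides numbered 4 in Lama2, 18 in Lamb1, 28 in Lamc1 and 35 in Itgb1. Windows were found for 27 of the 35 genes, 29 windows in all; Parva, Itga6, Nid2, Itgad, Itga7, Itgb4, Ptk2 and Lamb2 had none in the table. GC boxes were in 13 of the 29 (44.8%) and in 33.1% of all 33469 windows, CCAAT on either strand in 10 (34.5%) and 37.5%, TATAAA on either strand in 3 (10.3%) and 14.2%, and TGANTCA, the AP-1 site, in 1 (3.45%, Lama3) and 7.33%. The median GC content was 60.3% in the member windows and 51.7% in all, and the median number of CpGs 18 and 7. A match describes the letters of the window and is not a bound site.

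Lamb1 stood at 948.8, 1029.6, 983.5, 993.4 and 960.6 on normal and 1093, 1056, 918, 903 and 976 on hyperinsulinemic arrays. The groups overlapped, with both the lowest and the highest array in the hyperinsulinemic group, and the log2 difference was 0.01 ± 0.06 (95% interval -0.12 to 0.13).
Lamc1, the gamma chain shared by most laminins, was measured by 2 probe sets, which differed in sign. The brighter one gave 1845.7, 1813.2, 1819.9, 1962.7 and 1780.4 on normal and 1896.9, 2060.8, 1751.7, 1769.9 and 2000.3 on hyperinsulinemic arrays, and these ranges overlapped. Its log2 difference was 0.04 ± 0.06 (95% interval -0.08 to 0.16). The dimmer one gave 889, 798, 947, 898 and 716 on normal arrays and 591, 828, 747, 779 and 625 on hyperinsulinemic arrays. There the lowest values were in hyperinsulinemic replicates 6 and 10, and the log2 difference was -0.25 ± 0.10 (limma, adjusted p = 0.907). It was -0.19 without replicate 6, -0.21 without replicate 10, and -0.11 for the mean of both probe sets. So the lower value of Lamc1 rests on 1 of its 2 probe sets.

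**Figure D2:**
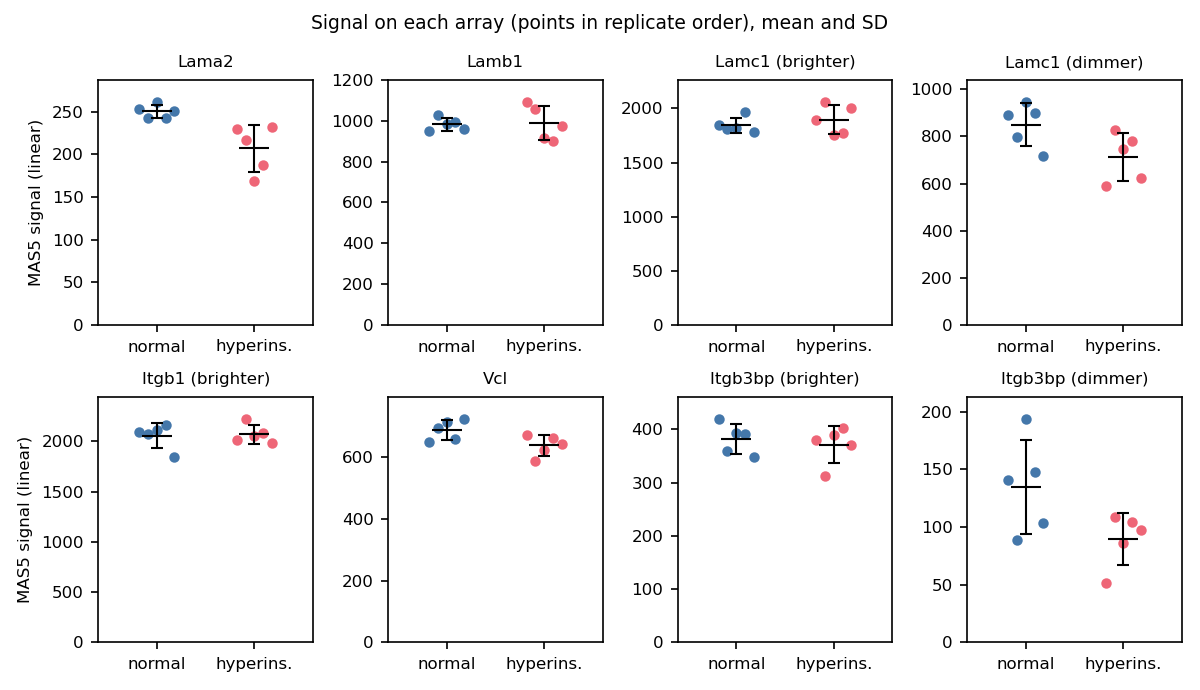
MAS5 signal (linear, y axis from 0) on each array for the laminin chains Lama2, Lamb1 and Lamc1, the receptor chain Itgb1, vinculin (Vcl) and Itgb3bp; points are arrays in replicate order, bars the mean and SD of 5. Lama2 is the 1 panel in which the groups do not overlap, and the 2 probe sets of Lamc1 and of Itgb3bp differ from each other.

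The other laminin alpha and beta chains, among them those of the glomerular and tubular basement membranes, had log2 differences between -0.10 and 0.09 and none passed the test. Lama1, the alpha chain of the early nephron, stood at 559.7, 590.7, 584.2, 616.0 and 688.5 on normal and 692, 625, 584, 602 and 583 on hyperinsulinemic arrays, with overlapping groups and a log2 difference of 0.02 ± 0.07. Lama5, which takes its place in the maturing glomerulus, stood at 820.2, 879.9, 904.5, 896.9 and 902.9 on normal and 869, 903, 913, 869 and 807 on hyperinsulinemic arrays. Its log2 difference was -0.01 ± 0.05 (95% interval -0.13 to 0.10), and its within-group variation of 4.40% was the lowest of the 27 genes. Lamb2, the beta chain of the mature glomerular membrane, stood at 549.6, 525.4, 436.4, 470.7 and 493.1 on normal and 460.4, 473.8, 449.7, 502.7 and 419.7 on hyperinsulinemic arrays. The normal values were the more spread, the groups overlapped, and the log2 difference was -0.10 ± 0.07 (limma, adjusted p = 0.973). Lama4, the alpha chain of vessel walls, stood at 485, 552, 552, 467 and 472 on normal and 578.4, 557.3, 559.9, 517.4 and 484.8 on hyperinsulinemic arrays; it was among the 3 highest differences of the set, at 0.09 ± 0.07, and its groups overlapped. Lama3, a chain of epidermal laminin, was below the filter at 44.5 ± 7.29 and 41.8 ± 2.10 (normal and hyperinsulinemic mean ± SD, n = 5 each, in that order here and below). A second Lama5 probe set was dim as well, at 18.5 ± 5.43 and 15.1 ± 8.32.

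Of the proteins that tie laminin to the membrane, none passed the test. Nid1, the nidogen that bridges the gamma chain of laminin to type IV collagen, stood at 1206.2, 1201.5, 1245.3, 1169.9 and 1171.3 on normal and 1061.3, 1266.4, 1126.1, 1100.3 and 1177.6 on hyperinsulinemic arrays, a log2 difference of -0.07 ± 0.05. Its groups overlapped, with hyperinsulinemic replicate 6 lowest and 7 highest. A dimmer Nid1 probe set ran from 90.9 to 172 and from 77.5 to 142, with a wider interval (-0.53 to 0.18). Nid2, its relative, ran from 852 to 991 on normal and from 846 to 993 on hyperinsulinemic arrays. Hspg2, the perlecan core protein, stood at 363.4, 345.9, 421.5, 280.5 and 396.6 on normal and 315, 347, 397, 358 and 342 on hyperinsulinemic arrays. The lowest and the highest array were both normal, and the log2 difference was -0.03 ± 0.10. Agrn, the main heparan sulphate proteoglycan of the glomerular membrane, stood at 996, 1087, 1019, 1049 and 1189 on normal and 1139, 1098, 1019, 1048 and 1088 on hyperinsulinemic arrays, a difference of 0.02 ± 0.06 with overlapping groups.

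Itgb1, the beta chain shared by most laminin and collagen receptors, had 2 tested probe sets. The brighter read 2097.8, 2077.9, 2109.5, 2158.4 and 1843.7 on normal and 2010.9, 2219.8, 2049.8, 2079.0 and 1988.9 on hyperinsulinemic arrays. Normal replicate 5 was the lowest, the other 9 arrays ran from 1989 to 2220, and the log2 difference was 0.01 ± 0.05 (95% interval -0.11 to 0.13). The dimmer, from 1124 to 1242 and from 1138 to 1253, gave 0.03 ± 0.05. Itgb5, the beta chain of a vitronectin receptor, had log2 differences of -0.03 ± 0.07 and 0.00 ± 0.09 on its 2 probe sets, which differ in sign. Itgb4, the partner of Itga6 in hemidesmosomes, was below the filter at 66.8 ± 5.39 and 64 ± 6.96.

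Among the alpha chains, Itga3, the laminin receptor chain of podocytes, stood at 371, 351, 341, 309 and 394 on normal and 333, 376, 382, 346 and 371 on hyperinsulinemic arrays. The groups overlapped and the log2 difference was 0.03 ± 0.07. Itga6, an epithelial laminin receptor chain, stood at 145, 105, 161, 162 and 127 on normal and 94.7, 144.7, 136.8, 132.7 and 142.0 on hyperinsulinemic arrays. Hyperinsulinemic replicate 6 was the lowest array, and the log2 difference of -0.09 ± 0.13 became 0.0028 without it. A dimmer Itga6 probe set, below the filter on every array, read 34.3, 30.9, 41.1, 48.8 and 37.3 on normal and 45.9, 46.3, 46.1, 49.1 and 50.4 on hyperinsulinemic arrays (exact two-sided permutation p = 0.0317). In limma without a filter its log2 difference was 0.23, opposite to that of the brighter probe set, with an adjusted p of 0.949. It was the 1 of 15 probe sets below the filter with an exact permutation p under 0.05. The share of all probe sets below the filter with such a p was not counted. With 5 against 5 arrays this test cannot give a p below 0.00794. Without a filter 4 of all 48 had an unadjusted p under 0.05 in limma, against 5.22% of 15866.
Itga8, the nephronectin receptor chain of kidney mesenchyme, also lay below the filter, at 64.2, 53.0, 80.2, 65.6 and 63.1 on normal and 50.5, 63.7, 67.2, 47.7 and 44.1 on hyperinsulinemic arrays. The groups overlapped, with the 3 lowest arrays in the hyperinsulinemic group, and the exact two-sided permutation p was 0.127. Itga7, a laminin receptor chain of muscle, had 3 probe sets, of which 1 was tested, at -0.04 ± 0.13; the other two, below the filter, ran from 23.6 to 32.4 on normal and from 18.8 to 36.6 on hyperinsulinemic arrays, and from 2.10 to 16.9 and from 6.40 to 14.8. Itga1, a collagen receptor chain, was below the filter at 51.5 ± 4.12 and 53.7 ± 5.25.

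Itga2b, the alpha chain of the platelet fibrinogen receptor, had the highest log2 difference of the set. It stood at 117.2, 109.9, 105.4, 131.4 and 106.0 on normal and 119, 114, 128, 142 and 114 on hyperinsulinemic arrays. The groups overlapped, and limma gave a difference of 0.10 ± 0.09 (adjusted p = 0.973). Only 2 of 5 platelet markers were measured; Pf4 had a log2 difference of -0.09 ± 0.10, and their summed signal ran from 149.5 to 211 on normal and from 123 to 196 on hyperinsulinemic arrays. Of the integrin chains of leukocytes, Itgae, the chain of intraepithelial lymphocytes, stood at 149.8, 146.6, 134.4, 126.4 and 165.4 on normal and 164, 134, 149, 154 and 146 on hyperinsulinemic arrays, with overlapping groups and a difference of 0.04 ± 0.08. Itgam, Itgad and Itgb7 lay below the filter, with group means of 10.7 ± 10.7 and 10.3 ± 8.52, of 10.9 ± 3.28 and 9.58 ± 2.07 and of 39.2 ± 2.99 and 34.8 ± 12.3 in the normal and the hyperinsulinemic group. A single array per group was high for Itgam, 29.7 on normal replicate 5 and 25.2 on hyperinsulinemic replicate 7. The summed signal of 9 leukocyte markers ran from 1243 to 1469 on normal and from 1267 to 1437 on hyperinsulinemic arrays. Of the 6 tested, 5 (C1qa, C1qb, Cd68, Csf1r and Laptm5) had a positive log2 difference and 1, Lyz2, a negative one; the median was 0.15, and 0 had an unadjusted p under 0.05 (limma).

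In the adhesion plaque, 6 of 7 genes had a negative log2 difference and 0 of 7 had an unadjusted p under 0.05 (limma), with a median of -0.06; of all tested genes 48.5% had a negative one. Vcl, vinculin, which links talin to actin, had the smallest p of the 7. It stood at 648, 693, 711, 657 and 721 on normal and 670.0, 586.7, 623.0, 661.3 and 640.9 on hyperinsulinemic arrays; the groups overlapped, although 3 of the 5 hyperinsulinemic arrays lay below every normal one. The log2 difference was -0.11 ± 0.06 (limma, adjusted p = 0.941, unadjusted 0.079), and a dimmer Vcl probe set, below the filter, stood at 81.8 ± 16.4 and 64.8 ± 13.3. Without the 2 arrays with the most liver signal Vcl had an unadjusted p under 0.05 in limma and the dimmer Lamc1 and Itgb3bp probe sets did not. Ptk2, focal adhesion kinase, stood at 381, 333, 338, 343 and 384 on normal and 333, 383, 347, 331 and 299 on hyperinsulinemic arrays, with overlapping groups and a difference of -0.07 ± 0.07.
Ilk, integrin-linked kinase, stood at 799.9, 931.3, 908.8, 868.5 and 994.1 on normal and 1007.4, 927.3, 730.0, 772.7 and 909.2 on hyperinsulinemic arrays. Both the lowest and the highest array were hyperinsulinemic, and the difference was -0.06 ± 0.09. Its partners Lims1 (PINCH) and Parva (parvin) had differences of -0.04 ± 0.06 and -0.06 ± 0.09 on their brighter probe sets. The dimmer Parva probe set gave -0.04 ± 0.15, and dimmer ones of Lims1 and Ptk2, below the filter, stood at 48.2 ± 15.4 and 55.2 ± 15.1 and at 24.1 ± 8.01 and 23.8 ± 3.35. Talin (Tln1), which activates integrins from inside, had -0.02 ± 0.06, and paxillin (Pxn), the plaque scaffold, 0.01 ± 0.06.

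Itgb3bp, known as a centromere protein as well as an integrin tail binder, showed the widest gap between probe sets. The brighter read 418.6, 358.8, 392.3, 390.2 and 348.7 on normal and 379.8, 312.7, 388.5, 403.2 and 370.9 on hyperinsulinemic arrays, with overlapping groups and a log2 difference of -0.04 ± 0.08. The dimmer read 140.8, 88.7, 193.4, 147.3 and 103.3 on normal and 51.8, 108.8, 85.8, 104.2 and 97.6 on hyperinsulinemic arrays. Hyperinsulinemic replicate 6 was the lowest and normal replicate 3 the highest, and the log2 difference was -0.50 ± 0.19 (limma, adjusted p = 0.907). It was -0.35 without hyperinsulinemic replicate 6, -0.37 without normal replicate 3 and -0.29 with liver signal as a covariate. Itgb1bp1, a regulator of the Itgb1 tail, differed by -0.01 ± 0.07, and Itgb1bp2, a muscle protein, was below the filter at 58.7 ± 6.37 and 54.5 ± 13.9.

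**Figure D3:**
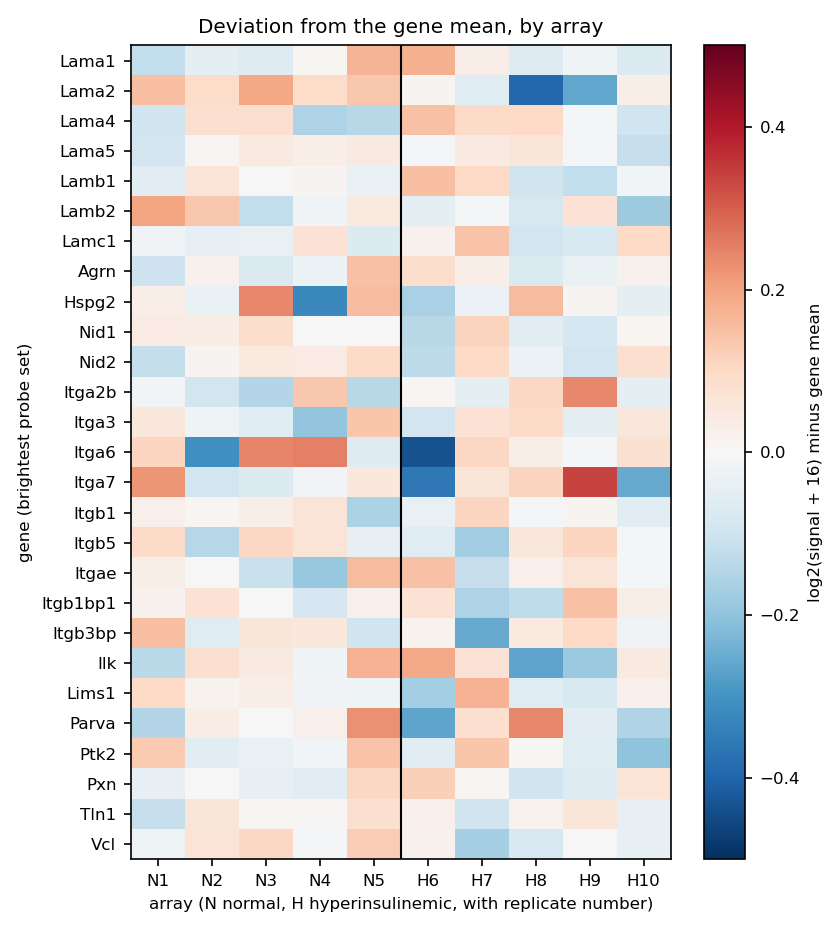
Deviation of log2(signal + 16) from the gene's mean over 10 arrays (colour), for the brightest probe set of the 27 tested genes (rows) on each array (columns; N normal, H hyperinsulinemic). The low cells of Lama2 are on hyperinsulinemic replicates 8 and 9, those of Itga6 on hyperinsulinemic replicate 6 and normal replicate 2, and those of Itga7 on hyperinsulinemic replicates 6 and 10; on each array between 11 and 18 of the 27 genes are above their mean.

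Across genes the arrays differed little: the median deviation of the 27 genes from their own means ran from -0.0014 to 0.05 on normal and from -0.01 to 0.04 on hyperinsulinemic arrays, and between 11 and 18 of the 27 genes were above their mean on each array. Of the 6 genes with 2 tested probe sets, Lamc1 and Itgb5 had differences of opposite sign.

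None of the other integrin ligands and adhesion genes passed the test either. Of a further list of 57 measured genes (matrix ligands, type IV collagens, kindlins, tensins and adaptor proteins among them) 49 were tested, the log2 difference being negative for 22 and positive for 27. Its median was 0.0033, and 0 passed in limma, adjusted over all probe sets. An unadjusted p under 0.05 was reached by 6 of 67 probe sets (8.96%), 2 higher and 4 lower, against 5.36% of all. Counted by gene it was 5 of 49 (10.2%), 2 higher and 3 lower, against 5.17% of all 7267 genes. Among the tested probe sets the smallest p-values belonged to the adhesion plaque gene Tns1, to Nedd9, Sdc4 and Sparc. Tns1 stood at 464, 474, 484, 511 and 484 on normal and 508.7, 530.7, 529.6, 621.0 and 620.5 on hyperinsulinemic arrays, and limma put the difference at 0.21 ± 0.07 (adjusted p = 0.832). The dimmer tested Tns1 probe set gave -0.09 ± 0.11, the opposite sign. Nedd9, a Cas-family scaffold, stood at 299, 284, 317, 291 and 292 on normal and 261.3, 262.9, 269.8, 270.4 and 255.7 on hyperinsulinemic arrays. The Nedd9 groups did not overlap, at a difference of -0.16 ± 0.06 (limma, adjusted p = 0.891). Sdc4, the syndecan of focal adhesions, had a log2 difference of -0.14 ± 0.05 (limma, adjusted p = 0.891). Sparc, a collagen-binding matrix protein of stroma, had -0.17 ± 0.06 on its dimmer probe set (limma, adjusted p = 0.907) and 0.01 ± 0.07 on its brighter one. Of the 17 probe sets of the list below the filter, 3 had an unadjusted p under 0.05 in limma without a filter, against 5.22% of all 15866. Parvb, a parvin relative of Parva, ran from 42.3 to 61.4 on normal and from 72.2 to 102 on hyperinsulinemic arrays, so the groups did not overlap, at a log2 difference of 0.57 (limma without a filter, unadjusted p = 0.000328, adjusted 0.347). A second Parvb probe set below the filter ran from 51.4 to 87.7 and from 69.6 to 79. The others of the 3 were probe sets of Arhgef7 and Ptpn11, both dim. That of Arhgef7 ran from 5.10 to 12.4 on normal and from 3.0 to 3.6 on hyperinsulinemic arrays, without overlap. The tested Arhgef7 probe set gave 0.07 ± 0.07, the opposite sign, and a further dim one 0.04. That of Ptpn11 ran from 11.7 to 23.6 on normal and from 17.2 to 38.1 on hyperinsulinemic arrays, a log2 difference of 0.40. The tested Ptpn11 probe set gave 0.09 ± 0.09. Vtn, vitronectin, also below the filter, ran from 1.4 to 2.6 on normal and from 3.9 to 99.6 on hyperinsulinemic arrays, without overlap. Its log2 difference was 0.83 (limma without a filter, unadjusted p = 0.0563, exact two-sided permutation p = 0.00794). The value of 99.6 was on replicate 6, the array with the most liver signal, and the part of liver signal in Vtn was not tested.

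**Figure D4:**
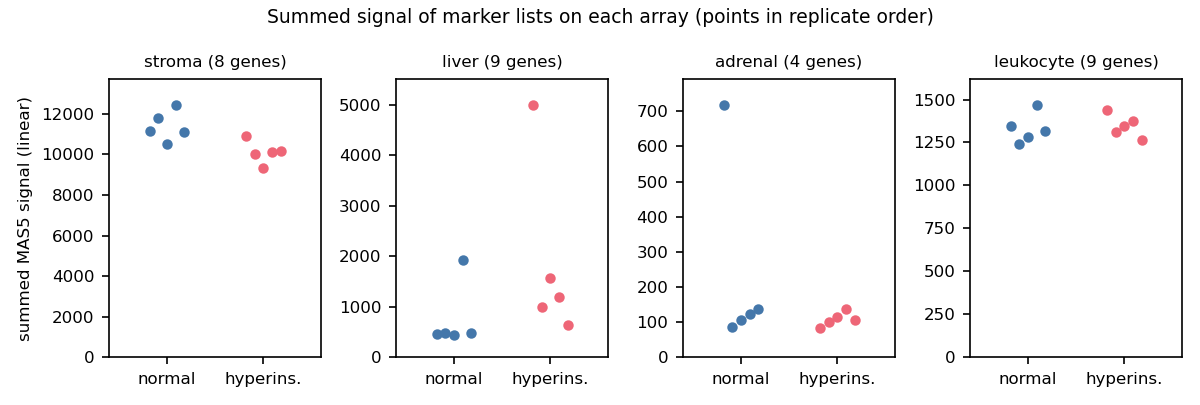
Summed MAS5 signal (linear, y axis from 0) of 4 marker lists on each array, points in replicate order. Stromal signal is 10524 to 12450 on normal and 9333 to 10887 on hyperinsulinemic arrays. Liver signal is highest on hyperinsulinemic replicate 6 and adrenal signal on normal replicate 1. The normal and hyperinsulinemic ranges overlap in all 4 lists.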

How the data were processed

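Total RNA of 10 fetal kidney samples was hybridised to Affymetrix rat arrays. The deposited values were linear intensity values, 1 MAS5 signal per probe set and array, per the labels and the submitters' processing notes, which name MAS5; its version and settings are not given in the sources used here. Of 15923 probe sets, the platform annotation gave 1 symbol for 12789, several for 312, and left 2822 unnamed here.

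The 57 control probe sets were left out. Signals were compared as log2(signal + 16) after the filter (40th percentile on at least 5 arrays) with limma 3.58.1 in R 4.3.3 (lmFit, eBayes with an intensity trend), two-sided, adjusted by Benjamini-Hochberg over 9601 probe sets. The code was tested on simulated data. After ± stands the SD of a signal or the standard error of a log2 difference, from 5 arrays per group, whose number limits the precision. A gene is represented by its brightest probe set, and signals of different probe sets are not compared.

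The members, lists and alternatives were chosen with earlier results of these data known. Arrays were described one by one for members with an unadjusted p under 0.05, the 3 largest differences in each direction, the 3 brightest, and 15 genes of kidney basement membrane and adhesion. Further marker lists of endothelium, smooth muscle and erythroid cells had 5, 5 and 3 tested genes. Of these 0, 2 (Tagln lower, Des higher) and 0 had an unadjusted p under 0.05 in limma, against 5.17% of all tested genes. Figures were drawn with matplotlib 3.10.9.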

Additional observations from a re-analysis of the deposited data

Results flagged for a closer look

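In 6 of 96 groups of 5 arrays (48 probe sets in each of 2 groups) 1 array stood far from the other 4, where chance flags about 1 in 20 groups. The Itga6 signal was 94.7 on hyperinsulinemic replicate 6 and 133 to 145 on the other arrays of its group. The brighter Itgb1 probe set read 1844 on normal replicate 5 against 2078 to 2158. The remaining cases were below the filter: Itgam read 29.7 on normal replicate 5 against 4.9 to 6.6 and 25.2 on hyperinsulinemic replicate 7 against 4.6 to 9.7, Itgb1bp2 read 69.8 on normal replicate 4 against 54.1 to 57.4, and the dimmer Lama5 probe set read 29.8 on hyperinsulinemic replicate 10 against 10.4 to 13.3.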

How the results depend on the processing

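With the 12 other settings and with each array left out, 0 member probe sets passed the adjusted threshold in limma, as with all arrays. The count at an unadjusted p under 0.05, 3 with all arrays, was 1 with liver signal as a covariate, 1 by the exact rank-sum test, and 1 to 3 with each array left out. The median log2 difference of the members, -0.03, was -0.0028 with array weights and -0.0054 with the liver covariate; leaving out each array gave -0.031 to -0.0078; that of the further list, 0.0033, was 0.027 with the liver covariate and -0.0097 to 0.022 with each array left out. The cause was not tested. Lama2, Lamb2, Vcl, Ptk2, Nid1, Lama4, Itga2b and the dimmer probe sets of Lamc1 and Itgb3bp kept their sign in every setting run for them; the other 12 named results, with differences between -0.09 and 0.04, changed sign in at least 1. With array weights the values were 0.0020 for Lama5, -0.044 for Lamb1, 0.0093 for Hspg2 and -0.0028 for Agrn. With the liver covariate they were 0.0056 for Itga6, -0.046 for Lama1, -0.041 for Lamb1 and 0.11 for Hspg2. Without the 2 arrays with the most Alb they were 0.054 for Itga6, -0.014 for Lama1, -0.027 for Lamb1, -0.0096 for Agrn and -0.029 for Itgae. Quantile normalization gave -0.012 for Itgb1, the Gapdh covariate -0.00079 for Lamb1, and the mean of both probe sets -0.11 for Lamc1. Leaving out each array gave ranges of -0.072 to 0.016 for the brighter Itgb3bp probe set, -0.011 to 0.073 for Itga3, -0.18 to 0.0028 for Itga6, -0.029 to 0.027 for Itgb1, -0.019 to 0.067 for Lama1, -0.040 to 0.013 for Lama5, -0.031 to 0.037 for Lamb1, -0.11 to 0.028 for Hspg2, -0.0083 to 0.055 for Agrn and -0.11 to 0.0030 for Ilk. No paired analysis was possible because the groups share no replicate numbers. Dim probe sets, 15 of the 48, lie below the filter, and their signals limit what can be seen of Itga8, Itgb4 and Lama3.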
